A study of Mus musculus with 6 samples.

Results

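Open chromatin was examined at 10 genes that handle calcium and potassium in vascular smooth muscle, namely Cacna1c, Trpc1, Trpc6, Ryr2, Itpr1, Atp2a2, Pln, Casq2, Kcnma1 and Kcnmb1. A region was taken where peaks of the 6 deposited lists, merged when they overlapped by at least 1 base, touched the RefSeq gene body or the 20 kb on either side of it (mm10). This gave 149 of the 85174 merged regions of the series. ATAC-seq finds open chromatin as the places that the Tn5 transposase can cut. It was run on primary mouse vascular smooth muscle cells from a commercial supplier, taken 24 h after transfection of siRNA. The knockdown group was 3 libraries of cells given siRNA against Arid3a, which encodes an ARID-domain transcription factor, with a different siRNA (si-Arid3a#1, #2 and #3) in each. The negative control group was 3 libraries of cells given a negative control. The spread within the knockdown group thus includes that between siRNAs. Whether replicates are separate cultures is not stated, so each p-value reflects only how far these samples vary, and that variation may be technical. siRNA acts on mRNA, so peaks cannot check the knockdown. The labels' growth protocol also describes an angiotensin II treatment without naming the libraries that received it.

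Vascular tone is set by calcium in the cytosol of smooth muscle cells. Calcium enters through voltage-gated L-type channels and channels of the TRPC family, is released from the sarcoplasmic reticulum through ryanodine and inositol trisphosphate receptors, and is pumped back by a calcium ATPase that phospholamban restrains and whose cargo calsequestrin buffers. Large-conductance potassium channels, opened by local calcium release, hyperpolarise the membrane and oppose contraction. Several of these genes, among them Ryr2, Pln and Casq2, are best known from the heart.

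Annotated starts were compared by their sequence and by the peaks at them. RefSeq promoter sequences (GRCm38.p6, the assembly of mm10) matched 8 of the 10 genes, with 10 starts in all, 3 of them in Cacna1c. Itpr1 and Atp2a2 were not matched and are described by the 2 annotated ends of the gene. The 250 bases before the start are shown for the 3 genes with a peak at a start and for Kcnmb1, at which no peak was called, since they differ in base composition. Capitals mark matches to the GC box, GGGCGG, on either strand, or to the CArG box, the binding sequence of serum response factor.
Cacna1c (chr6:119108496-119108745, minus strand): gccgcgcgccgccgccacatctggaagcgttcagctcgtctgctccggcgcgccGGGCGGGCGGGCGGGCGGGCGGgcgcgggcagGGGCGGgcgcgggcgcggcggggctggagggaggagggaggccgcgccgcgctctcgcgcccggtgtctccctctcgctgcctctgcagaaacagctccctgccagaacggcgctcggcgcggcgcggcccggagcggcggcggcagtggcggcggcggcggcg
Trpc1 (chr9:95750349-95750598, minus strand): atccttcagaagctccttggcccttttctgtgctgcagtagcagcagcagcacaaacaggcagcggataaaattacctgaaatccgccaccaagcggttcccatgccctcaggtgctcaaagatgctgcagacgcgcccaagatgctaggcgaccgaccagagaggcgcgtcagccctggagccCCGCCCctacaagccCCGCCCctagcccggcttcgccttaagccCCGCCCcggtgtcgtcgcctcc
Trpc6 (chr9:8543892-8544141, plus strand): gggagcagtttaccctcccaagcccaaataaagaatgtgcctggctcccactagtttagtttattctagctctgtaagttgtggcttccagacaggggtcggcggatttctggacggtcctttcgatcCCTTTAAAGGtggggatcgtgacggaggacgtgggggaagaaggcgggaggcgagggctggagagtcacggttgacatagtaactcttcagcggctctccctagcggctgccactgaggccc
Kcnmb1 (chr11:33962763-33963012, plus strand): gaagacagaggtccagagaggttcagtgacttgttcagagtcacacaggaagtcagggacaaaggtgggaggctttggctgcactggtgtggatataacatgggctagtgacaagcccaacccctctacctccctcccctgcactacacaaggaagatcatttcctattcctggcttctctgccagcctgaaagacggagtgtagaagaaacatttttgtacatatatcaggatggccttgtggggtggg

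The start of Cacna1c shown here held 81.3% G and C over the 300 bases from 250 before to 50 after it, that of Trpc1 63.0%, that of Trpc6 60% and that of Kcnmb1 49.7%. Within 1 kb of the start, a peak was called at Cacna1c in 6 of 6 libraries, at Trpc1 in 5 and at Trpc6 in 5. At the other 7 starts of member genes it was called in 0 of 6. These include the GC-rich starts of Kcnma1 (78.0% G and C) and Ryr2 (65.3%), those of Casq2 (44.7%) and Pln (36.0%), and the other starts of Cacna1c, which held 51.3% each. The member starts with and without a peak overlapped in base composition. Over all 21263 promoter sequences of protein-coding genes, a peak overlapped the sequence itself in 6 of 6 libraries at 45% of those with 60% or more G and C, at 24.7% of those with 45% to under 60%, and at 2.28% of those with less. These limits of 45% and 60% were chosen after the values had been seen. Over all of them, 28.8% were overlapped in 6 of 6 libraries and 48.9% in 0 of 6. By that narrower measure no member start was open in 6 of 6 libraries. The Trpc1 sequence was overlapped in 5 libraries, that of Trpc6 in 4, and that of Cacna1c in 1, because its peak lay just upstream.

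**Figure D1:**
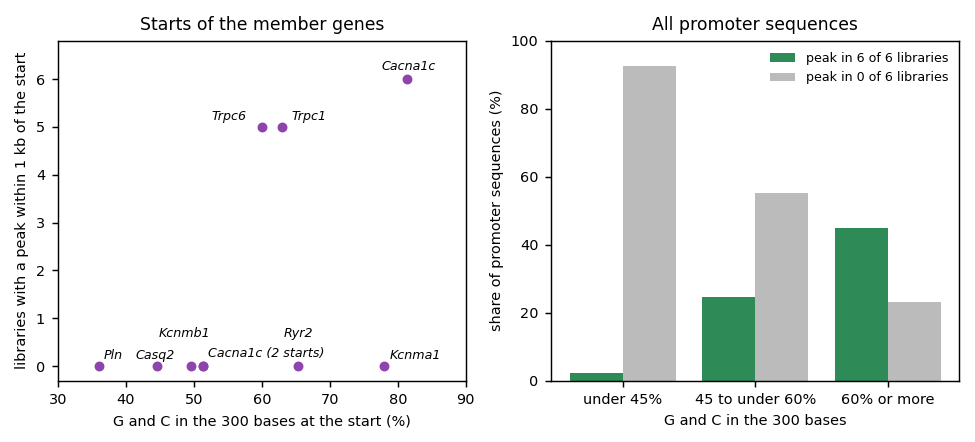
The left panel plots, for the 10 annotated starts of 8 genes, the share of G and C in the 300 bases at the start against the number of libraries with a peak within 1 kb. The right panel gives, for all promoter sequences in 3 classes of G and C content, the share (%) overlapped by a peak in 6 of 6 libraries (green) or 0 of 6 (grey). The GC-rich starts of Kcnma1 and Ryr2 sit at 0 libraries, while those of Cacna1c, Trpc1 and Trpc6 sit at 5 or 6.

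The GC box was found in 4 of the 10 member promoter sequences of 300 bases and in 46.2% of all promoter sequences. It stood at the GC-rich start of Cacna1c and at that of Trpc1, and also at those of Kcnma1 and Ryr2, where no peak was called. The CArG box stood in 1 of 10, that of Trpc6, and in 1.52% of all. The E box, CANNTG, was found in 8 of 10 and in 69.0% of all. On either strand, ATTAAA, a short AT-rich sequence searched for Arid3a, was found in 0 of 10 (11.7% of all), TGANTCA for AP-1 in 0 of 10 (6.99% of all) and GGAATG for TEAD factors in 0 of 10 (13.6% of all). In these 10 sequences 0 matches overlapped a match of a different motif, and overlaps between matches of the same motif occurred at Cacna1c, Kcnma1 and Ryr2. A match describes letters in this window, and its absence says nothing of binding.

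The lists held between 33248 and 52091 peaks, and the estimated depth was between 0.953 and 2.01 megatags. Control replicate 2 (0.953 megatags) and knockdown replicate 3 (1.19 megatags) were the shallowest and had the shortest lists. Of the smooth muscle markers, 4 of 8 had a peak at a gene end in 6 of 6 libraries, Acta2, Tagln, Smtn and Lmod1. Myh11 and Des had one in 0 of 6. Of the cardiac markers 1 of 9 had one in 6 of 6, Tnnt2, of the skeletal, neuronal and endothelial markers 0 of 6 each, of the fibroblast markers 0 of 5 and of the leukocyte markers 1 of 5. A gene end here means the 1000 bases on each side of either annotated end, and 36.5% of 21887 protein-coding genes had a peak there in 6 of 6 libraries, against 41.4% in 0 of 6.

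Among the 149 regions, 32 (21.5%) were present in 6 of 6 libraries and 51 (34.2%) in 1 library. Over all regions of the series these shares were 24.4% and 33.5%, so the sharing of member regions between libraries lay near that of the whole series. Of the 149, 128 lay inside the member gene and 21 in a flank. Of those inside, 1, in Cacna1c, also lay at the end of another protein-coding gene, Dcp1b. The median peak in the 32 shared regions had a mean fold enrichment of 8.13, compared with 8.62 in all 20742 regions shared by 6 libraries. Fold enrichment is the authors' value for each peak, the summit tags relative to those expected locally in that library. It describes peaks and was not tested between libraries. Where a library had more than 1 peak in a region, the one with the highest −log10 q was taken.

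**Figure D2:**
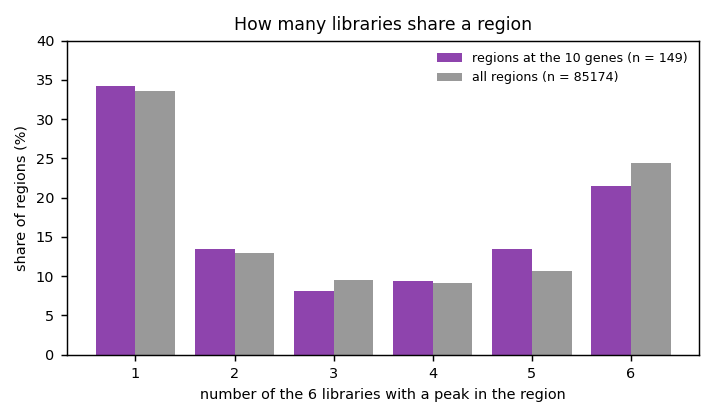
Bars give the share of regions (%) that had a peak in 1, 2, 3, 4, 5 or 6 of the 6 libraries, for the 149 regions at the 10 genes (purple) and for all 85174 regions (grey). Both distributions are highest at 1 library and next highest at 6.

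Knockdown replicates 1 to 3 held 83, 89 and 71 of the 149 regions, and control replicates 1 to 3 held 86, 60 and 86. These are 55.7%, 59.7% and 47.7% in the knockdown libraries and 57.7%, 40.3% and 57.7% in the control libraries. For all regions of the series the same shares were 58.1%, 59.1% and 48.2% in the knockdown libraries and 59.2%, 38.6% and 60.3% in the control libraries. The groups overlapped, and the lowest value of each group belonged to its shallowest library. Of 20 member regions present in 5 of 6 libraries, 10 were missing from control replicate 2 and 7 from knockdown replicate 3. The 17 regions missing from either of these libraries were 85.0%, against 81.4% of all 9050 regions in 5 of 6 libraries. Depth therefore moved with presence, and its part in single absences was not tested.

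**Figure D3:**
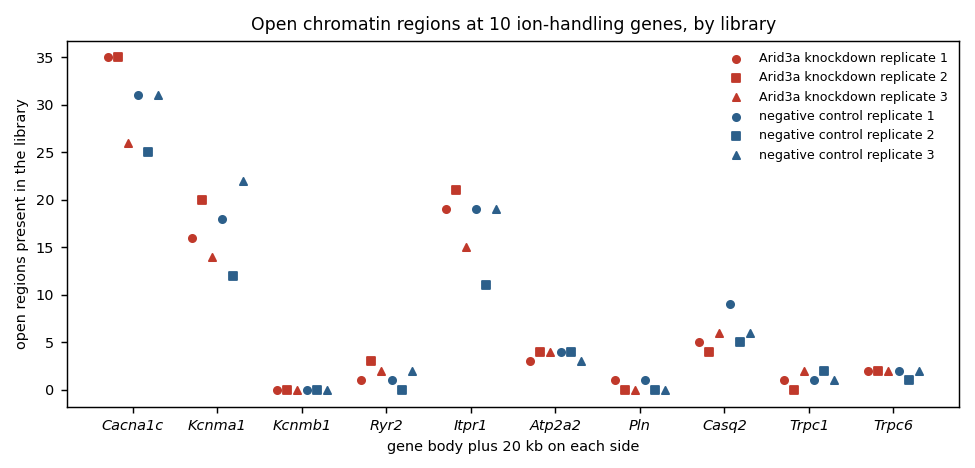
Each point is the number of open regions present in 1 library at 1 gene (body plus 20 kb on each side), with knockdown libraries in red left of control libraries in blue and the marker shape giving the replicate. Cacna1c, Kcnma1 and Itpr1 held 11 to 35 regions in each library, while Kcnmb1 held 0 in all 6.

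Among the genes of calcium entry, Cacna1c, which encodes the pore-forming subunit of the L-type channel, carried the most open regions. Its gene spans 118587240 to 119197384 on chromosome 6 (minus strand), and 49 regions lay in its window, 14 of them in 6 of 6 libraries. That is 7.54 regions per 100 kb, more than in 65.3% of protein-coding genes, whose median was 5.48. Knockdown replicates held 35, 35 and 26 of these regions and control replicates 31, 25 and 31.

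The strongest Cacna1c region in 6 of 6 libraries lay inside the gene at 118954964 to 118955702, 153 kb downstream of the GC-rich start. Its fold enrichment was 18.8, 15.2 and 12.6 in knockdown replicates 1 to 3 and 13.8, 12.8 and 14.6 in control replicates 1 to 3, with 31 to 77 tags at the summit. The groups overlapped, and the mean over 6 libraries, 14.6 ± 2.28 (SD, n = 6), was at or above that of 97.2% of regions shared by 6 libraries. The region next in rank, at 118765209 to 118765781, had 14.7, 13.5 and 10.9 in the knockdown libraries and 17.4, 6.74 and 14.4 in the control libraries. It lay 7.52 kb upstream of an internal start at 118757974, within 1 kb of which no peak was called. A further strong region at 118731815 to 118732255, chosen after its values were seen, had 16, 19.2 and 13.8 in the knockdown libraries and 13.9 and 15.5 in control replicates 1 and 3. It was not called in control replicate 2, the shallowest library.

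At the GC-rich start of Cacna1c, whose sequence is shown above, a region at 119108719 to 119109565, chosen after its values were seen, was present in 6 of 6 libraries. It lay upstream of the start, with its midpoint 0.647 kb before it. Fold enrichment was 4.43, 8.0 and 4.83 in knockdown replicates 1 to 3 and 9.31, 5.51 and 8.76 in control replicates 1 to 3, so the groups overlapped. Further upstream, with its midpoint 2.06 kb before the same start, a region of 216 bases at 119110443 to 119110658 was present in 3 of 3 knockdown and 0 of 3 control libraries. Such a region is called knockdown-only here, and the opposite case control-only. Of all 85174 regions, 0.432% were knockdown-only and 0.277% control-only. Its fold enrichment was 5.27, 6.42 and 5.54 in the knockdown libraries, from 10 to 13 tags over a local background of 0.984 to 1.18 tags, and the smallest −log10 q was 5.05. In each control library the nearest peak lay 1.00 to 1.08 kb away, in the region at the start. The region stayed knockdown-only at a −log10 q of 5 or more, and with lists of equal length it did not.

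Trpc1 and Trpc6 encode subunits of receptor-operated, non-selective cation channels of the plasma membrane. Trpc1 (chromosome 9, 95705072 to 95750386, minus strand) had 3 regions and Trpc6 (chromosome 9, 8543867 to 8680752, plus strand) had 2. At the Trpc1 start, the region at 95749902 to 95750396 had a fold enrichment of 11.1 and 5.11 in knockdown replicates 1 and 3 and of 9.19, 4.96 and 8.01 in control replicates 1 to 3. It was not called in knockdown replicate 2, which is among the 4 deepest libraries. The other Trpc1 regions, both outside the gene, were each present in 1 library, at 2 and 3 tags.

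The Trpc6 start lay in a region at 8543897 to 8544739, with a fold enrichment of 4.18, 4.43 and 5.12 in the knockdown libraries and 5.90 and 6.14 in control replicates 1 and 3. The knockdown values lay below both control values, and control replicate 2 had no peak there. This difference was not tested, and how often it occurs over all regions was not determined. This peak held 4 to 7 tags. The other Trpc6 region, 14.7 kb downstream at 8558604 to 8558999, was present in 6 of 6 libraries, at 8.71, 6.99 and 5.96 in the knockdown libraries and 9.31, 5.14 and 6.55 in the control libraries, which overlapped.

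The release channels Ryr2 and Itpr1 differed in how many regions they carried. Ryr2, the cardiac ryanodine receptor gene (chromosome 13, 11553099 to 12106945, minus strand), had 5 regions in a window of 594 kb, or 0.842 per 100 kb. A lower density was found at 20.1% of protein-coding genes, most of them among the 19% with no region in their window. None of the Ryr2 regions was present in 6 of 6 libraries. Itpr1, which encodes an inositol trisphosphate receptor (chromosome 6, 108213083 to 108551116), had 32 regions, or 8.46 per 100 kb, of which 9 were present in 6 of 6 libraries.

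The strongest Ryr2 region, named after its values were seen, lay inside the gene at 11905071 to 11905431, 202 kb downstream of the start. Its fold enrichment was 10.7 and 12.2 in knockdown replicates 1 and 2 and 11.2 and 12.0 in control replicates 1 and 3, from 15 to 18 tags. Those are the 4 deepest libraries, and neither shallow library had a peak there. Of 14 member regions present in 4 of 6 libraries, 5 had this pattern, and its share over all regions in 4 of 6 libraries was not determined. The other 4 Ryr2 regions were present in 1 or 2 libraries, and no peak was called within 1 kb of the start.

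At Itpr1, the region at the lower-coordinate end of the gene, 108212739 to 108213395, was the strongest of the 32 member regions shared by 6 libraries. Its fold enrichment was 17.3, 15.7 and 14.8 in the knockdown libraries and 18.4, 12.8 and 15.8 in the control libraries, from 26 to 49 tags. The mean of 15.8 ± 1.95 (SD, n = 6) was at or above that of 98.8% of regions shared by 6 libraries, and the groups overlapped. Inside the gene, the region at 108527984 to 108528457 had 16.6, 13.2 and 9.91 in the knockdown libraries and 11.4, 8.38 and 14.1 in the control libraries. Knockdown replicates held 19, 21 and 15 of the Itpr1 regions and control replicates 19, 11 and 19.

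**Figure D4:**
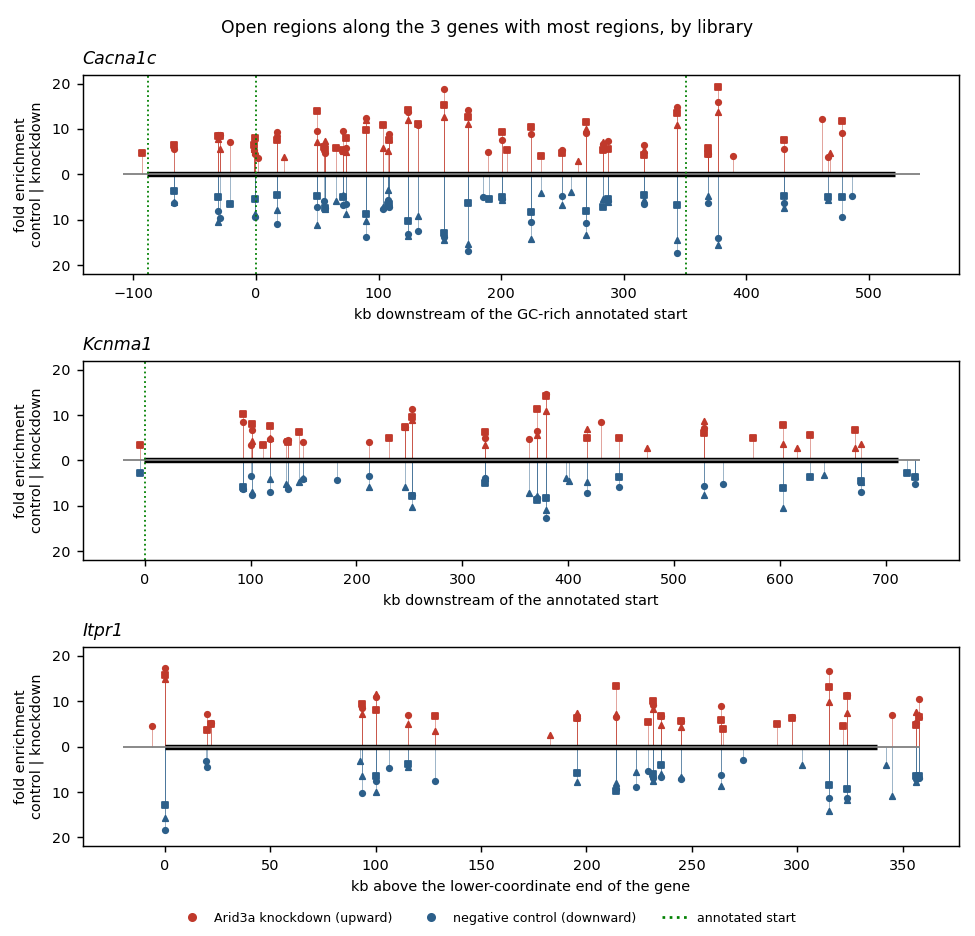
Each point is the peak of 1 library in a region along Cacna1c, Kcnma1 or Itpr1, placed by its distance in kb from a start (Itpr1: from the lower-coordinate end), with fold enrichment drawn upward for knockdown (red) and downward for control (blue) and marker shapes as replicates (circle 1, square 2, triangle 3). The thick bar is the gene body, the thin line its 20 kb flanks and dotted lines annotated starts. The Cacna1c peaks at 0 kb stand at 4.43 to 9.31, and no Kcnma1 region lies at its start.

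Of the genes of calcium storage, Atp2a2 showed a peak at an annotated end in 6 of 6 libraries, and Pln and Casq2 in 0 of 6. Atp2a2, the calcium pump of the sarcoplasmic reticulum (chromosome 5, 122453513 to 122502225), had 10 regions, 6 of them in 1 library. Its density was 11.3 regions per 100 kb, higher than that of 85.1% of protein-coding genes. The region at its upper-coordinate end, 122501934 to 122502926, was the 1 present in 6 of 6 libraries. Fold enrichment there was 6.20, 5.86 and 4.60 in knockdown replicates 1 to 3 and 6.86, 7.01 and 7.86 in control replicates 1 to 3. The knockdown values all lay below the control values, but the values are scaled within each library and were not tested. The groups also separated, with knockdown higher, at regions in Cacna1c and Itpr1 chosen after their values were seen. At Cacna1c, 118999350 to 118999915, the values were 8.90, 7.57 and 7.73 in the knockdown libraries and 7.24, 6.59 and 6.49 in the control libraries. At Itpr1, 108444400 to 108445253, they were 9.08, 10.1 and 8.30 against 7.00, 6.01 and 7.65. How often the groups separate in either direction over all regions shared by 6 libraries was not determined. A weaker peak beside it, at 122501170 to 122501612, was called in knockdown replicate 3 alone, at 3.90.

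A knockdown-only region lay 7.33 kb above the upper end of Atp2a2, at 122509551 to 122509957. Its fold enrichment was 3.81, 8.33 and 5.60 in the knockdown libraries, from 4 to 10 tags, with a smallest −log10 q of 2.42 in knockdown replicate 1. The nearest peaks of the control libraries lay 1.68 to 6.69 kb away. It was no longer knockdown-only at a −log10 q of 5, with lists of equal length, or when a peak counted as present only if it spanned 50% or more of the region.

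Pln encodes phospholamban, the inhibitor of that pump. Its window on chromosome 10 (gene 53337686 to 53345999, plus strand) held 1 region, 2.47 kb above the gene and inside the neighbouring Cep85l gene. Described after its values were seen, it was called in knockdown replicate 1 at a fold enrichment of 4.09 and in control replicate 1 at 4.48.

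Casq2 encodes calsequestrin, which binds calcium inside the reticulum. Its window (gene 102086415 to 102146514 on chromosome 3, plus strand) held 11 regions, or 11.0 per 100 kb, more than in 83.9% of protein-coding genes. Of these regions, 3 were present in 6 of 6 libraries, all 3 inside the gene. The strongest, 22.1 kb downstream of the start at 102108283 to 102108802, had 8.76, 9.51 and 8.25 in the knockdown libraries and 10.6, 8.24 and 9.79 in the control libraries, which overlapped. The next, at 102141585 to 102142242, had 8.04, 6.35 and 7.23 in the knockdown libraries and 6.31, 4.72 and 4.51 in the control libraries. The lowest knockdown value thus stood just above the highest control value. This separation was not tested, and its share over all regions shared by 6 libraries was not determined. A control-only region lay 17.8 kb downstream of the start, at 102104052 to 102104463. Its peaks had fold enrichments of 5.29, 3.59 and 6.63 in control replicates 1 to 3, from 5 to 14 tags, with a smallest −log10 q of 1.75 in control replicate 2. The nearest peaks of the knockdown libraries lay 3.82 to 3.87 kb away. At a −log10 q of 5 and with lists of equal length it was not control-only.

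The subunit genes of the large-conductance potassium channel differed in how many regions they carried. Kcnma1 encodes the pore-forming subunit (chromosome 14, 23292288 to 24005110, minus strand), and its window held 36 regions, 4 of them in 6 of 6 libraries. That is 4.78 per 100 kb, more than in 45.3% of protein-coding genes and below their median of 5.48. Kcnmb1, which encodes the smooth muscle beta subunit that raises the channel's calcium sensitivity (chromosome 11, 33962955 to 33973641, plus strand), had 0 regions in a window of 50.7 kb. Of protein-coding genes, 19% had none in their window. The nearest region to Kcnmb1 was 28.4 kb away and present in 1 library.

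The strongest Kcnma1 region shared by 6 libraries lay inside the gene, 380 kb downstream of the start at 23624406 to 23624963. Fold enrichment was 14.6, 14.3 and 11.0 in the knockdown libraries and 12.8, 8.35 and 10.9 in the control libraries, from 15 to 38 tags. The next in rank, at 23750937 to 23751555, had 11.4, 9.63 and 8.91 in the knockdown libraries and 7.68, 7.72 and 10.4 in the control libraries. Both pairs of groups overlapped. The region nearest to the Kcnma1 start lay 4.18 kb upstream, with 2 and 3 tags in 1 library of each group, and the first one downstream lay 92.9 kb away. Both were chosen after their values were seen. A control-only region stood 15.9 kb below the gene, at 23276055 to 23276422, with a fold enrichment of 5.10, 3.61 and 3.36 in control replicates 1 to 3. It rested on 3 to 5 tags, the smallest −log10 q was 2.10, and at a −log10 q of 5 and with lists of equal length it was not control-only. The nearest peaks of the knockdown libraries lay 21.9 to 57.2 kb away.

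**Figure D5:**
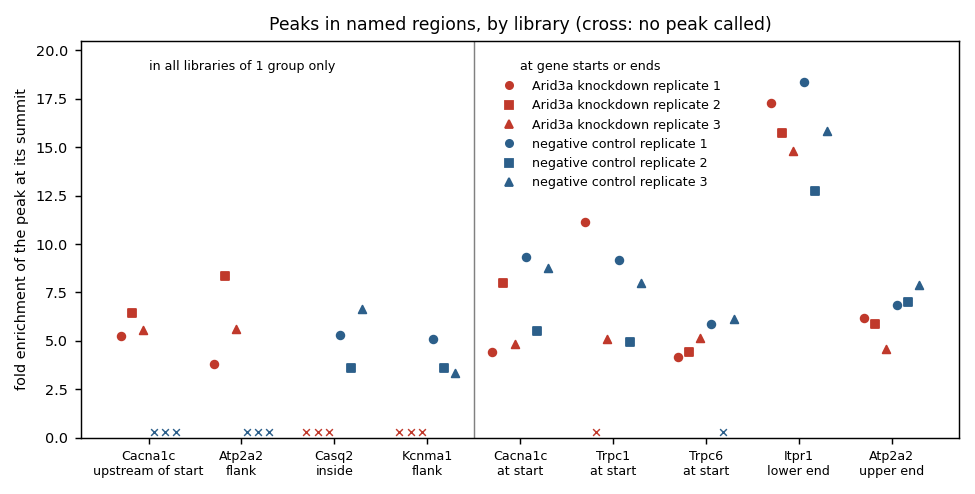
Points give the fold enrichment of the peak of each library in 9 named regions, with knockdown libraries in red left of control libraries in blue, marker shapes as replicates, and a cross where no peak was called. The 4 regions on the left have peaks in all 3 libraries of 1 group, all at 3.36 to 8.33. The Itpr1 end region stands at 12.8 to 18.4 in all 6 libraries.

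Over the 10 genes there were 2 knockdown-only regions (1.34% of 149), against 0.432% of all 85174 regions, and 2 control-only regions (1.34%), against 0.277%. Those shares rest on 2 regions each, and no region can reach an exact p below 0.1 with 3 libraries against 3, so they do not set the 10 genes apart. Leaving out knockdown replicate 1, 2 or 3 gave 4, 2 and 4 knockdown-only regions and 2, 2 and 4 control-only regions. Leaving out a control replicate gave 2 or 3 of each kind. Fewer libraries then have to agree, which can raise such counts by construction, but the cause of the changes was not tested.

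The number of peaks in each gene window, per 10000 peaks of the library, was compared between the groups for all 17734 protein-coding genes with a peak in their window. Cacna1c had 7.52, 7.22 and 6.49 in the knockdown libraries and 6.04, 7.82 and 6.34 in the control libraries, a difference of 0.342 (7.07 ± 0.531 against 6.73 ± 0.954, SD, n = 3 each; exact two-sided permutation p = 0.7). Itpr1 differed by 0.166 (3.82 ± 0.251 against 3.65 ± 0.0464, SD, n = 3 each; exact permutation p = 0.4). Kcnma1 differed by −0.303 (3.48 ± 0.38 against 3.78 ± 0.388, SD, n = 3 each; exact permutation p = 0.4). Casq2 differed by −0.399 (1.07 ± 0.338 against 1.47 ± 0.302, SD, n = 3 each; exact permutation p = 0.2). Ryr2 differed by 0.228 (0.421 ± 0.20 against 0.193 ± 0.192, SD, n = 3 each; exact permutation p = 0.2).

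Trpc6 was the only one of the 9 members tested whose groups did not overlap, with 0.396, 0.390 and 0.480 per 10000 peaks in the knockdown libraries and 0.390, 0.301 and 0.384 in the control libraries (exact permutation p = 0.1, the smallest that 3 against 3 allow). Of all genes tested, 6.74% were likewise higher in every knockdown library and 2.85% lower. The peaks behind the Trpc6 values were 2, 2 and 2 in the knockdown libraries and 2, 1 and 2 in the control libraries, which overlap before division by the length of the list. Atp2a2, Trpc1 and Pln had exact permutation p of 0.9, 0.7 and 1. With Benjamini-Hochberg adjustment over all genes, each of the 9 members had an adjusted p of 1, and no gene of the 17734 could have passed 0.05. The count of 1 member without overlap became 2 without knockdown replicate 1, knockdown replicate 2 or control replicate 2, and 3 without knockdown replicate 3 or control replicate 3. With a replicate left out, the share over all genes was not determined.

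Other ion-handling genes of vascular smooth muscle, 49 in a list chosen with earlier results of these data known, held 353 regions, 90 of them (25.5%) in 6 of 6 libraries. An end was open in 6 of 6 libraries at 2 of the 10 members, Itpr1 and Atp2a2, at 15 of the 49 (30.6%) and at 36.5% of all genes. Starts inside a gene are not counted here, among them the GC-rich Cacna1c start, with a peak within 1 kb in 6 of 6 libraries. Among ends open in 6 of 6 libraries, the highest mean fold enrichments were those of Pkd2, a polycystin channel, at 14.7 ± 1.92, and Calr, the reticulum calcium buffer calreticulin, at 11.6 ± 2.71 (SD, n = 6 libraries). Next came Trpm7 (8.92 ± 1.98), Kcnj2 (8.47 ± 1.40), Itpr2 (8.38 ± 1.29), Itpr3 (8.14 ± 1.47), Atp2b1 (8.0 ± 1.60) and Orai2 (7.84 ± 0.717). Itpr2 and Itpr3, the other inositol trisphosphate receptor genes, thus had an open end in 6 of 6 libraries as Itpr1 did, while the other ryanodine receptor genes, Ryr1 and Ryr3, named after their values were seen, had one in 0 of 6, as did Ryr2.

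Of the 353 regions, 3 were knockdown-only (0.850%) and 2 control-only (0.567%). Atp2b1, a calcium pump of the plasma membrane, had 2 knockdown-only regions on chromosome 10, 16.2 kb outside the gene (7.12, 4.79 and 7.54 in knockdown replicates 1 to 3) and inside it (5.5, 3.24 and 5.05). Slc8a1, the sodium-calcium exchanger, had 1 inside the gene (8.38, 4.66 and 2.67). A control-only region lay inside Itpr3 (4.02, 3.30 and 6.75 in control replicates 1 to 3). Across these 4 named regions the smallest −log10 q lay between 1.31, at Slc8a1, and 4.06, at the outer Atp2b1 region.

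The 20 kb limit of the windows left out regions close by. The outermost Itpr1 region, 19.2 kb above the gene, and the nearest one outside the Cacna1c window, 21.8 kb from the gene, were both present in 6 of 6 libraries, at mean fold enrichments of 7.28 and 9.80. At Casq2 the nearest region outside lay 22.6 kb away and was present in 6 of 6 libraries at 11.6, while the outermost one inside, at 16.8 kb, was present in 1.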

How the data were processed

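The ATAC-seq peak lists of 6 libraries were used as deposited, 1 per library. Per the submitters' processing notes, Bowtie2, Picard and MACS2 were used with build mm10. Not given in the sources used here were their versions and settings, duplicate handling, any Tn5 shift and the peak-calling control. Kept duplicates would raise peak calls in libraries of low complexity, and a missing shift would move summits by a few bases. For each peak the authors deposited a fold enrichment (a ratio over local background), −log10 p and −log10 q, a score of 10 times −log10 q, and the summit position. The lists reach down to a −log10 q just above 1.30, as a q cutoff of 0.05 leaves.

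From these files, peaks were merged with at least 1 base of overlap and placed against RefSeq genes (GRCm38.p6). A library was present in a region where 1 of its peaks lay in it. Positions are counted from 1. Whole summit tags were recovered from fold and −log10 p under the MACS2 Poisson model (pseudocount 1). The background was solved from the fold, so only the −log10 p was checked. It was met to within 0.001 in 99.996% or more of the peaks of each library. Totals of tags were estimated from the lowest background, the shortest peak and an assumed genome of 1870 Mb, and only rank libraries by depth. Counting error only is covered. The 6 lists shared 0 identical peaks. Peak numbers per 10000 were compared by exact two-sided permutation over 20 relabellings in Python 3.11.15 (numpy 2.4.6, pandas 2.3.3, scipy 1.17.1), and the merging, tag recovery and test were tested on simulated data or against bedtools.

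Members and lists were chosen with earlier results of these data known. Named regions are every group-only region, every region at an end of a member, and the 2 strongest shared by 6 libraries per member. Of the other ion-handling genes, those with a group-only region and the 8 with the highest mean fold enrichment at a gene end open in 6 of 6 libraries are named, except 1 gene that is not reported here. Others are said to be chosen after their values were seen. Alternatives were a −log10 q of 5, lists of equal length, a cover of 50%, windows of 0 and 50 kb, omission of regions at other genes' ends, of each replicate and of the shallowest libraries, a replicate block, and undivided peak numbers. Peak sequences were not used here, since only promoter sequences were at hand.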

Additional observations from a re-analysis of the deposited data

How the results depend on the processing

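At a minimum −log10 q of 5 there were 94 member regions, 19 of them in 6 of 6 libraries, 1 knockdown-only and 0 control-only. With lists of equal length there were 99, of which 1 was knockdown-only, a Kcnma1 region that is not among those named above, and 0 control-only. When a peak counted only if it spanned 50% of the region, 15 were present in 6 of 6 libraries and 1 was knockdown-only. Within the gene body alone there was 1 of each kind. In the 4 deepest libraries 54 regions were present in every library, 4 were knockdown-only and 5 control-only. Leaving out each replicate gave 138 to 145 member regions, 32 to 42 in every library left, 2 to 4 knockdown-only and 2 to 4 control-only. The 2 knockdown-only and 2 control-only regions named above were among them each time. Their definition brings this about, since leaving out a library adds no peak to the other group, so it is no check of these regions. Member genes whose peak numbers did not overlap between the groups were 0 at a −log10 q of 5, 0 with lists of equal length, 0 with the 50% cover, 0 with undivided peak numbers, 3 within the gene body (Ryr2 and Trpc6 higher, Casq2 lower), 4 in the 4 deepest libraries (Cacna1c, Itpr1 and Trpc6 higher, Casq2 lower), and 1 to 3 without each replicate. With 50 kb on each side the gene was Itpr1, not Trpc6. Shares over all regions and all genes were determined only for the full lists of 6 libraries with windows of 20 kb. The counts under the alternatives therefore have no background beside them. The cause of these shifts was not tested. Counts can rise by construction where fewer libraries have to agree. Same-numbered libraries deviated with correlations of 0.0180, −0.0823 and −0.0835 across 17734 genes, and differently numbered ones with −0.0582 to 0.107. Pairing by replicate number was thus not seen. This check cannot exclude it, since the peak numbers in most gene windows are small. With the replicate number as a block, 2 genes (Ryr2 and Trpc6) were higher in every same-numbered pair, and 0.25 is then the smallest exact p. Estimated depth differed between the libraries, and its part in these shifts was not tested. The median summit of a member region held 7 tags in control replicate 2 and 9 in knockdown replicate 3, against 10 to 11 in the other libraries.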
